A study of Rattus norvegicus with 15 samples.

Results

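The 30 genes described here encode protein subunits of mitochondrial oxidative phosphorylation that the nuclear genome carries, measured on arrays of mammary gland (left inguinal) from 15 female Lewis rats. They were chosen by gene symbol: 11 subunits of complex I, 4 of complex II, 4 of complex III, cytochrome c, 5 of complex IV and 5 of complex V (ATP synthase), out of 14239 genes that the array's 31042 tested probe sets name by Entrez identifier. All 30 were measured, 29 found by symbol and Ndufa4 by its Entrez identifier, and each is represented by its probe set of highest mean over the 15 arrays. A present call is the detection algorithm's statement that a probe set was told from background. A present call on all 15 arrays was made for 29 genes, whereas Ndufb8 had none on any array, so its values were not told from background.

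All rats were virgin and aged 3 months at the start, and were assigned at random to groups of 5. The pregnancy group (arrays P1, P2, P3, P7 and P9) carried a pregnancy to term over 21 to 23 days with sham capsules of cellulose matrix under the skin, and the pups were removed 4 to 6 hours after birth. The hormone group (H1 to H5) carried 2 silastic capsules for 21 days, one with 100 µg of the estrogen ethynyl estradiol and one with 30 mg of the progestin megestrol acetate. The control group (C1, C2, C4, C5 and C6) had neither exposure and carried the sham capsules. Glands were taken after about 49 further days, with every rat in metestrus, and 1 array was hybridised per rat. The labels give pieces of whole gland and not sorted cells, so a smaller share of a cell type and less RNA per cell cannot be told apart in any value below.

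Complexes I to IV pass electrons along the inner mitochondrial membrane to oxygen, with cytochrome c as the soluble carrier between complexes III and IV, and complexes I, III and IV pump protons as they do so. Complex V lets the protons return and makes ATP from ADP. Complex II is also succinate dehydrogenase of the citric acid cycle, and unlike the others it has no subunit from the mitochondrial genome. In the mammary gland this machinery is known for its growth in the secretory epithelium at lactation, while skeletal muscle, heart and brown fat hold most of it among the tissues of the body. Nuclear respiratory factor 1 (NRF-1), the ETS factor GABP (also called NRF-2), YY1 and the estrogen-related receptors are known regulators of these genes.

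Promoter windows are shown for 3 subunit genes and for 1 muscle isoform with a different profile. The 3 were picked, among the genes whose values on every array are given, because their windows held the NRF-1 core defined below. The windows of Ndufs3, Cox5a, Atp5b and Atp5f1, which are also such genes, had no NRF-1 core and are not shown. The windows are those of RefSeq on the rat build GRCr8, 300 bases in all, with 250 bases before and 50 after each gene's start, and 26 of the 30 genes matched one. Capitals mark matches to the letters GCGCATG (a core of the NRF-1 site), CCGGAAG (a core of the ETS site), AAGATGG (a core of the YY1 site), AAGGTCA (a core of the site of estrogen-related receptors) or CAGCTG (an E-box of the kind bound by myogenic factors), each searched on both strands. None of these letter strings overlapped another in the 4 windows. Cycs encodes cytochrome c, Sdhb the iron-sulfur subunit of complex II, Uqcrc1 a core subunit of complex III, and Cox6a2 the subunit of complex IV found in heart and skeletal muscle. The windows lie at chr4:80984718-80985017 on the minus strand (Cycs), chr5:158547684-158547983 on the plus strand (Sdhb), chr8:118467973-118468272 on the plus strand (Uqcrc1) and chr1:192219667-192219966 on the minus strand (Cox6a2).
Cycs: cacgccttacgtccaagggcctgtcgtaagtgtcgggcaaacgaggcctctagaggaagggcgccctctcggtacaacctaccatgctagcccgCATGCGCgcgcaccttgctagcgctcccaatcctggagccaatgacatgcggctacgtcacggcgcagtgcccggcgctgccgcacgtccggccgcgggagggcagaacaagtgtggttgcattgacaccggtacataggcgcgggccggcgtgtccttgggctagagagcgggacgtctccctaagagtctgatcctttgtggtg
Sdhb: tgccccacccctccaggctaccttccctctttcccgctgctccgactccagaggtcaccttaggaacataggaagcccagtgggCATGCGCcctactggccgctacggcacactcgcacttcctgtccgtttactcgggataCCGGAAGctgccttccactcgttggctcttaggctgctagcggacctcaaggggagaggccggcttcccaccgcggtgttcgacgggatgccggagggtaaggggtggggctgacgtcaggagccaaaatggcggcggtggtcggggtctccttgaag
Uqcrc1: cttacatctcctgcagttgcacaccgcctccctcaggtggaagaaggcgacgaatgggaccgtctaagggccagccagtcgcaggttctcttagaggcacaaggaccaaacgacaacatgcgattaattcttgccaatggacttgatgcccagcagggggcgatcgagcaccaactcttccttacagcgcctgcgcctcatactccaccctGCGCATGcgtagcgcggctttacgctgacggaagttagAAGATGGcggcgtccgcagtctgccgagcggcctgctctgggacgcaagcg
Cox6a2: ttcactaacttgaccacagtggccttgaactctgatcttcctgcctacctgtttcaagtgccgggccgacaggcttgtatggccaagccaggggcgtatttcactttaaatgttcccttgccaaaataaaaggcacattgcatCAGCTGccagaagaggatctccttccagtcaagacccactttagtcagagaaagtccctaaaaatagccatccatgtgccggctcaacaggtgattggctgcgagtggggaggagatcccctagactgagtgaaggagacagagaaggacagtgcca

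The Cycs window held the NRF-1 core in its reverse orientation, at bases -156 to -150 from the start. The Sdhb window held it at -166 to -160 and an ETS core at -108 to -102. In Uqcrc1 an NRF-1 core lay at -39 to -33 and a YY1 core spanned the start, at -1 to 5. The Cox6a2 window had an E-box at -107 to -102 and none of the other 4 strings. Over the 26 subunit windows, the NRF-1 core was in 6 (23.1%), against 4.32% of 21851 windows of protein-coding genes. The ETS core was in 9 (34.6%, against 10.7%), and 13 of the 26 windows had at least 1 of these 2 strings, against 14.2% of the protein-coding windows. The YY1 core was in 6 (23.1%, against 7.29%), the receptor core in 2 (7.69%, against 3.78%) and the E-box in 5 (19.2%, against 15.2%). The median GC content was 58.3% in the subunit windows and 55.0% over the protein-coding windows, and these shares were not matched for it. A match is a string of letters and no evidence of binding.

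The values are the authors' log2 expression values, made by RMA, and a difference of 1 on this scale is a doubling. The arrays had 65.3 to 68.4% of probe sets called present, and their medians lay between 7.70 and 7.77. The number of arrays limits the precision of every value. Arrays of 1 group could differ several-fold in marker genes of other tissues, and list levels are given as the mean of the genes' log2 values relative to the 15 arrays. The skeletal muscle list (24 of 25 genes measured, Myh2 never called present) ranged from -1.27 to 2.08 in pregnancy arrays, from -0.97 to 3.61 in hormone arrays and from -1.57 to 0.44 in control arrays, with P7 (1.68), P9 (2.08) and H4 (3.61) the 3 highest. The lymph node list (15 of 19 genes measured) ranged from -1.04 to 1.74, from -1.33 to -0.18 and from -1.19 to 2.17 in the same 3 groups, and C1 (2.07), C4 (2.17), C5 (2.14) and P3 (1.74) stood above the other 11 arrays. Markers of luminal epithelium, the milk-secreting cell layer, were all measured, with 10 of the 11 called present on all arrays.

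Compared with control, the subunit genes were slightly higher after pregnancy in every complex, and none of them passed the test. The question of the comparison is whether a past pregnancy left a lasting change in the resting gland. All 30 differences of pregnancy minus control were above 0, against 54.7% of all probe sets and 44.8% of the 21651 called present on at least 5 arrays, with a median of 0.11 (a fold of 1.08) and, over the 29 genes with present calls, a range of 0.02 (Ndufb3) to 0.27 (Ndufb9). The median over all probe sets was 0.02. Without C1, C4, C5 and P3, the arrays rich in lymph node transcripts, only C2 and C6 were left as controls. In that fit, a choice made after seeing the data, the median was 0.04. Of the 30 differences 19 were above 0 there, against 51.5% of all probe sets. At an adjusted p under 0.05 (limma, Benjamini-Hochberg over all probe sets) 0 of 30 were called, against 0.197% of all probe sets (0.116% higher), and the smallest adjusted p was 0.147, for Sdhb. At an unadjusted p under 0.05, 6 of 30 (20.0%) were higher, against 11.3% of all probe sets: Ndufa5, Ndufb8, Ndufb9, Sdhb, Uqcrc1 and Cycs. In 0 of 30 genes did the 5 pregnancy values lie wholly above the 5 control values, against 2.49% of probe sets. The standard errors of the differences were 0.05 to 0.13, and the highest upper bound of a 95% interval among the 29 genes with present calls was 0.52.

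The hormone group also lay slightly above control in most subunit genes, again with none past the test, and this direction was not kept without C1, C4, C5 and P3. Of the differences of hormone minus control, 29 of 30 were above 0, against 58.0% of all probe sets and 50.7% of those called present on at least 5 arrays, with a median of 0.10 against 0.03 over all probe sets. The exception was Atp5a1, the alpha subunit of ATP synthase, at -0.01. Without C1, C4, C5 and P3, which left only C2 and C6 as controls, the median was -0.00. Of the 30 differences 13 were then above 0, against 52.3% of all probe sets. With the lymph node level as a covariate the median was 0.02 and 20 of 30 were above 0, against 52.1%. At an adjusted p under 0.05 in limma, 0 of 30 were called, against 0.029% of all probe sets (0.00966% higher), and the smallest adjusted p was 0.190, for Ndufa5. At an unadjusted p under 0.05, 4 of 30 (13.3%) were higher, against 9.70% of probe sets: Ndufa1, Ndufa5, Ndufb5 and Sdhb. Again 0 of 30 had hormone values wholly above the control values, against 1.48% of probe sets. Both comparisons share the 5 control arrays, so the likeness of their values is not independent evidence.

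The direct comparison of the exposures gave smaller values. The median of pregnancy minus hormone was 0.01 over the 30 genes and -0.00 over all probe sets, and 18 of 30 differences were above 0, against 49.3% of probe sets. They ranged from -0.07 (Ndufb3) to 0.11 (Uqcrc1). At an adjusted p under 0.05 in limma 0 of 30 were called, against 0.00322% of probe sets, and 0 of 30 were higher at an unadjusted p under 0.05, against 4.45%. Pregnancy values lay wholly above the hormone values in 0 of 30 genes, against 1.59% of probe sets. The 95% intervals of the 29 genes with present calls reached at most 0.31 upward and -0.29 downward. In the authors' deposited table the smallest adjusted p among the 30 genes was 0.133 for pregnancy minus control (Sdhb), 0.193 for hormone minus control (Ndufa5) and 0.616 for hormone minus pregnancy (Atp5f1).

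**Figure D1:**
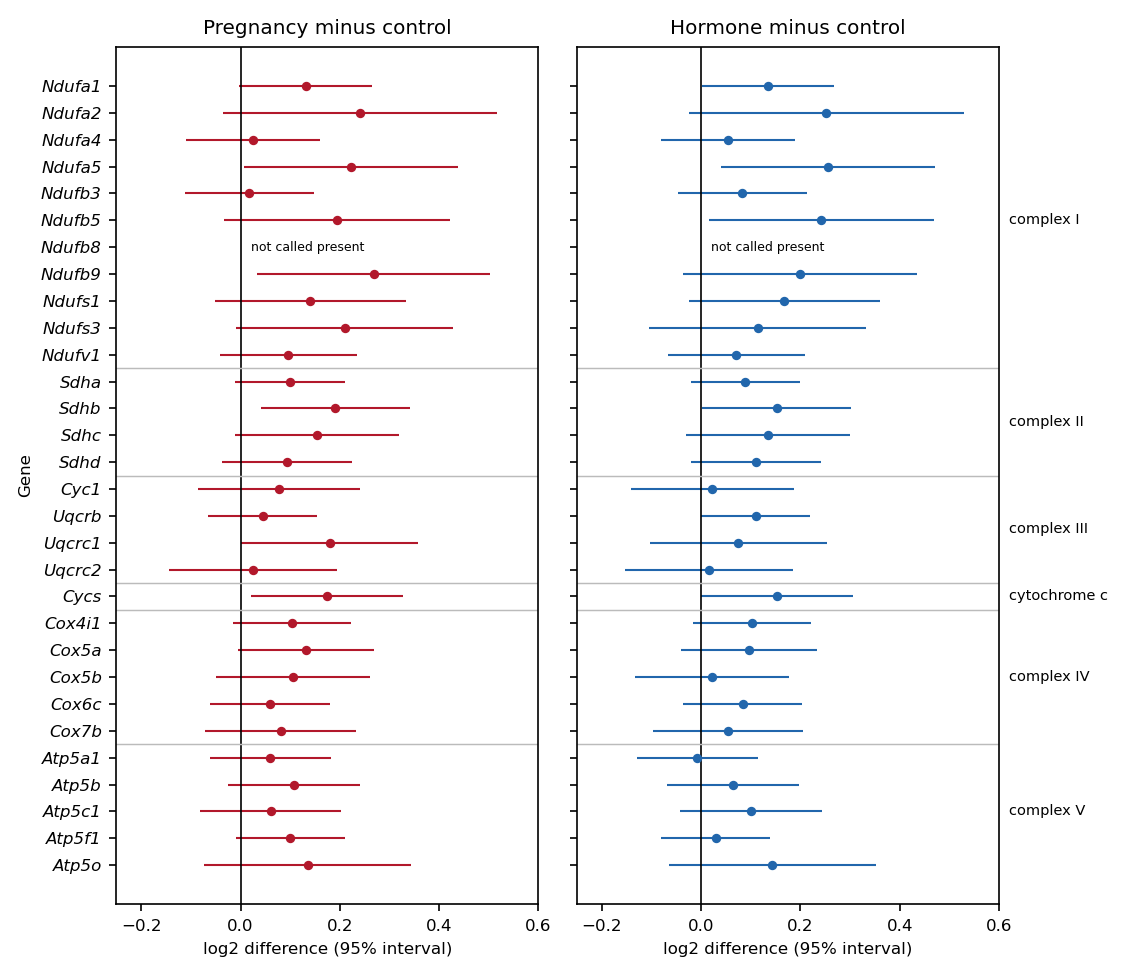
Difference of each subunit gene in log2 units, pregnancy minus control and hormone minus control, ordered by complex, with points for the estimate and bars for its 95% interval. Ndufb8 was not called present on any array and has no point. The 29 points of pregnancy minus control lie between 0.02 and 0.27, mostly with intervals that include 0.

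Complex I, the NADH dehydrogenase where electrons from NADH enter, had the highest median difference of the 5 complexes, 0.19 for pregnancy minus control and 0.17 for hormone minus control over 11 genes. Differences between complexes were not tested. The signal level of the genes also differed, with a mean log2 value of 9.94 for Ndufa5 and 13.41 for Cox4i1 of complex IV, and was not matched. Ndufb9, an accessory subunit, had log2 values of 12.44, 12.69, 12.39, 12.59 and 12.46 in P1, P2, P3, P7 and P9. It had 12.51, 12.38, 12.31, 12.49 and 12.52 in H1 to H5, and 12.24, 12.53, 12.13, 11.85 and 12.47 in C1, C2, C4, C5 and C6. C5 and C4 were the lowest of all arrays, and C2 and C6 lay among the exposed glands, so the groups overlapped. Pregnancy minus control was 0.27 ± 0.11 (SE, limma adjusted p = 0.179) and hormone minus control 0.20 ± 0.11 (adjusted p = 0.307).

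Ndufs3, a core subunit of the arm of complex I in the matrix, was the complex I gene with the largest difference between P7, P9 and H4 and the other arrays. Its log2 values were 10.90, 11.16, 10.90, 11.22 and 11.02 in the pregnancy arrays, 11.03, 10.98, 10.67, 11.09 and 10.96 in the hormone arrays, and 10.85, 11.11, 10.63, 10.69 and 10.89 in the control arrays. H3 was nearly as low as C4, and C2 nearly as high as P2. The difference of pregnancy minus control was 0.21 ± 0.10 (SE, limma adjusted p = 0.245), and hormone minus control was 0.11 ± 0.10. Ndufb8, an accessory subunit with no present call, had group means of 9.99 ± 0.14 in pregnancy, 9.90 ± 0.11 in hormone and 9.70 ± 0.27 in control arrays (SD, n = 5 each), and an adjusted p of 0.159 for pregnancy minus control in limma.

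The other genes of complex I spread over the whole range of the set. Ndufa5, an accessory subunit, averaged 10.00 ± 0.14 in pregnancy, 10.03 ± 0.07 in hormone and 9.78 ± 0.24 in control arrays (SD, n = 5 each). Ndufa2 averaged 11.37, 11.38 and 11.13 in the same order, and Ndufb5 averaged 11.74, 11.79 and 11.55. The smallest differences in the complex were those of Ndufb3 (0.02 for pregnancy minus control) and Ndufa4 (0.03), both accessory by name. Ndufa4 is now regarded as a subunit of complex IV. With Ndufa4 moved there, the complex I median of pregnancy minus control was 0.20 and the complex IV median 0.09. Ndufa1, an accessory subunit of the membrane arm, differed by 0.13, Ndufs1, which carries iron-sulfur clusters, by 0.14, and Ndufv1, which binds NADH, by 0.10.

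Complex II had median differences of 0.13 for pregnancy minus control and 0.12 for hormone minus control over 4 genes. Sdhb had values of 11.91, 12.05, 11.87, 12.04 and 11.93 in the pregnancy arrays, 11.97, 11.90, 11.83, 11.95 and 11.96 in the hormone arrays, and 11.74, 11.97, 11.67, 11.60 and 11.87 in the control arrays. Each pregnancy and hormone value lay above those of C1, C4 and C5, while C2 lay within the pregnancy range and just above the highest hormone value. Pregnancy minus control was 0.19 ± 0.07 (SE, limma adjusted p = 0.147) and hormone minus control 0.15 ± 0.07 (adjusted p = 0.237). Sdhc and Sdhd, the membrane anchors, differed by 0.15 and 0.09 for pregnancy minus control, and Sdha, the flavoprotein with the active site, by 0.10.

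Complex III, the cytochrome bc1 complex, had lower medians, 0.06 for pregnancy minus control and 0.05 for hormone minus control over 4 genes. Uqcrc1 had values of 11.90, 12.06, 11.86, 12.16 and 12.07 in the pregnancy arrays, 11.96, 11.93, 11.71, 12.00 and 11.91 in the hormone arrays, and 11.89, 12.03, 11.61, 11.81 and 11.79 in the control arrays. P7, P9 and P2 were the 3 highest and C4 and H3 the 2 lowest, and the groups overlapped. The difference of pregnancy minus control was 0.18 ± 0.08 (SE, limma adjusted p = 0.224), and hormone minus control was 0.07 ± 0.08. Its partner core subunit Uqcrc2 differed by 0.02 for pregnancy minus control, Uqcrb, a small subunit, by 0.04, and Cyc1, which encodes cytochrome c1, by 0.08.

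Cytochrome c carries electrons between complexes III and IV and also takes part in apoptosis when released from mitochondria. Cycs had values of 11.87, 12.00, 11.88, 12.04 and 11.93 in the pregnancy arrays, 12.03, 11.88, 11.85, 12.03 and 11.82 in the hormone arrays, and 11.84, 11.84, 11.73, 11.55 and 11.89 in the control arrays. C5 was the lowest array and C4 the next, and C6 lay within both exposed groups. Pregnancy minus control was 0.17 ± 0.07 (SE, limma adjusted p = 0.180) and hormone minus control 0.15 ± 0.07 (adjusted p = 0.244). Cycs has 7 annotated pseudogenes, the most of any of the 30 genes, and hybridisation of such copies was not resolved. Named pseudogenes exist for 17 of the 30 genes, 41 in all.

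Complex IV, cytochrome c oxidase, which passes the electrons to oxygen, had medians of 0.10 for pregnancy minus control and 0.08 for hormone minus control over 5 genes. Cox5a had values of 13.00, 13.05, 12.99, 13.19 and 13.01 in the pregnancy arrays, 12.95, 12.90, 12.94, 13.11 and 13.16 in the hormone arrays, and 12.90, 12.91, 12.81, 12.95 and 13.02 in the control arrays. P7 and H5 were the highest and C4 the lowest, with overlap between all groups. The difference of pregnancy minus control was 0.13 ± 0.06 (SE, limma adjusted p = 0.243), and hormone minus control was 0.10 ± 0.06. The other 4 subunits, Cox4i1, Cox5b, Cox6c and Cox7b, differed by 0.06 to 0.11 for pregnancy minus control.

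Complex V had medians of 0.10 for pregnancy minus control and 0.06 for hormone minus control over 5 genes. Atp5f1, of the stalk that holds the catalytic head, had values of 12.75, 12.91, 12.89, 12.93 and 12.89 in the pregnancy arrays. It had 12.82, 12.81, 12.69, 12.83 and 12.87 in the hormone arrays and 12.85, 12.79, 12.71, 12.76 and 12.77 in the control arrays. Apart from P1, the pregnancy values exceeded every hormone and control value. Pregnancy minus control was 0.10 ± 0.05 (SE, limma adjusted p = 0.266), and hormone minus control was 0.03 ± 0.05.

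Atp5b, the catalytic beta subunit, was the complex V gene with the largest difference between P7, P9 and H4 and the other arrays. It had values of 13.37, 13.52, 13.44, 13.56 and 13.59 in the pregnancy arrays, 13.45, 13.50, 13.34, 13.49 and 13.47 in the hormone arrays, and 13.44, 13.54, 13.26, 13.34 and 13.35 in the control arrays. C2 and P9 were among the highest values, so the groups overlapped. The difference of pregnancy minus control was 0.11 ± 0.06 (SE, limma adjusted p = 0.321). Averaged with its second probe set, Atp5b had differences of -0.06 for pregnancy minus control and -0.11 for hormone minus control, so its direction depends on the probe set. Of the other 3, Atp5o, which joins stalk and head, differed by 0.13 for pregnancy minus control, and Atp5a1 and Atp5c1, the gamma subunit, by 0.06 each.

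A second probe set existed for 9 of the 30 genes. That of Cox5a differed by 0.41 ± 0.11 for pregnancy minus control (SE, limma adjusted p = 0.09), and those of Cycs and Uqcrc2 by 0.22 and 0.17. Those of Ndufb9, Ndufs1 and Atp5b were lower, at -0.11, -0.22 and -0.23, and correlated negatively over the 15 arrays with the probe set used (r = -0.43, -0.26 and -0.32). The second probe set of Ndufb9 was never called present. Those of Ndufs1 and Atp5b were called present on all 15 arrays, so the direction of both genes depends on the probe set.

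**Figure D2:**
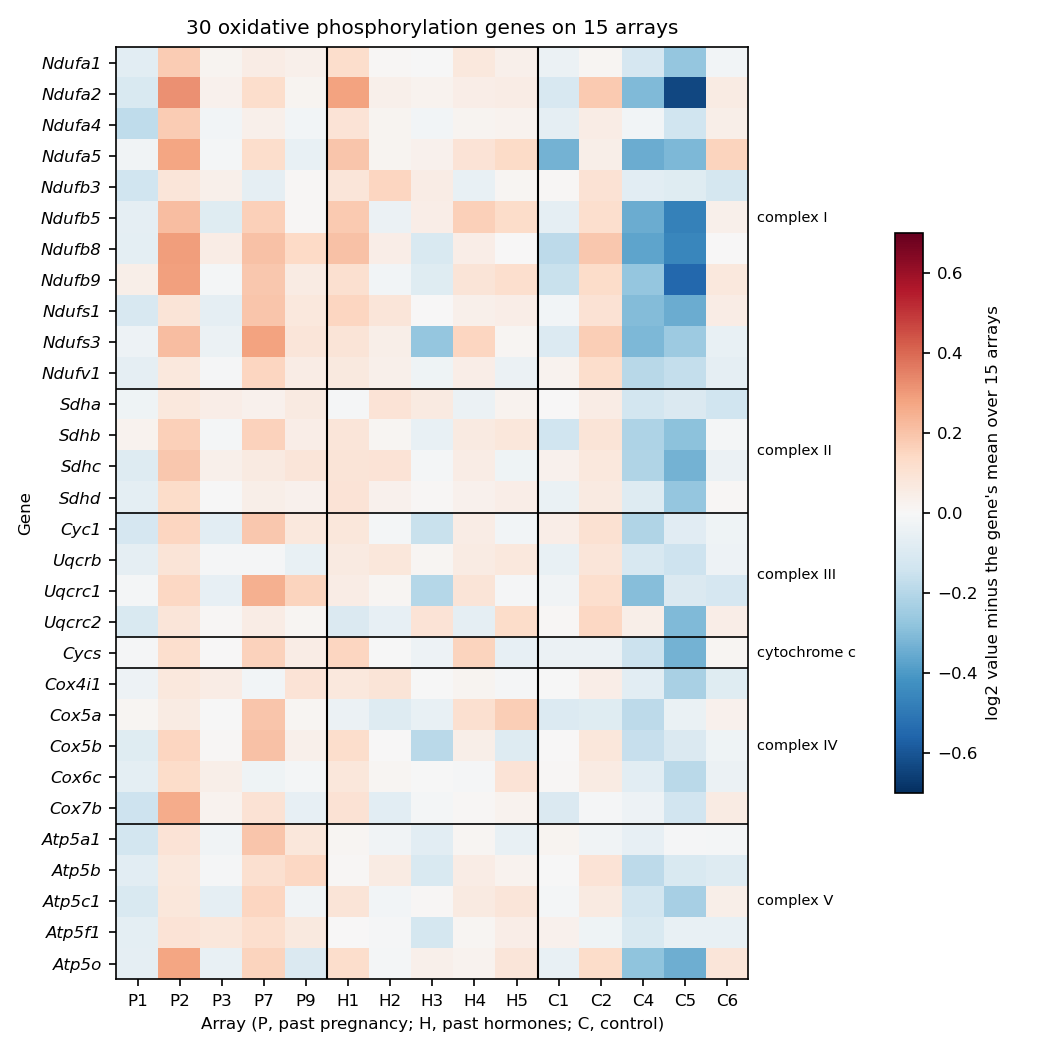
Log2 value of each of the 30 subunit genes on each of the 15 arrays relative to the gene's mean over the arrays, with pregnancy arrays at the left, hormone arrays in the middle and control arrays at the right. The columns of C4 and C5 are low from complex I to complex V, and those of P2 and P7 are high.

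The subunits varied together from array to array. The median Pearson correlation between pairs of the 30 genes over the 15 arrays was 0.67 for 435 pairs, 0.74 for 87 pairs in the same complex and 0.65 for 348 pairs in different complexes. It was 0.04 for all pairs of genes with a present call on every array, and the points share arrays, normalisation and the tissue mix of each gland. The mean profiles of the complexes correlated with one another at 0.74 (complex III with cytochrome c) to 0.97 (complex I with complex II). Relative to the 15 arrays, the mean of the 30 genes was -0.07, 0.16, -0.00, 0.12 and 0.04 in P1, P2, P3, P7 and P9, then 0.09, 0.02, -0.04, 0.05 and 0.04 in H1 to H5. It was -0.05, 0.07, -0.18, -0.24 and -0.01 in C1, C2, C4, C5 and C6. C5 and C4 were the 2 lowest arrays and held the lowest value of 23 of the 30 genes, while C2 was the fourth highest. P2 held the highest value of 14 genes and P7 that of 11.

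The genes differed in how closely they followed that common profile. Sdhb correlated at 0.95 with the mean of the others and Ndufa1 at 0.94. The lowest values were those of Ndufb3 (0.47), Uqcrc2 (0.52), Cox5a (0.52) and Atp5a1 (0.53). The spread of the mean of the 30 genes between arrays was 0.09 in pregnancy, 0.05 in hormone and 0.13 in control (SD, n = 5 each). Among 10102 further genes with a present call on every array, the 5 most like the mean profile were Ndufa9, an accessory subunit of complex I (r = 0.97), Pet100 (0.95), Slc39a3, a zinc transporter (0.95), Micos13 (0.94) and Dnajc15 (0.94). A correlation above 0.9 was found for 46 of these genes, of which 16 are other respiratory chain or ATP synthase subunits.

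The arrays rich in muscle transcripts were slightly higher in most of the 30 subunits, by far less than in the muscle list. The mean of the 30 genes was 0.09 higher on P7, P9 and H4 than on the other 12 arrays. The skeletal muscle list was 3.07 higher on the same 3 arrays. Of the 30 genes, 28 were higher on these 3 arrays, against 51.2% of all probe sets, from -0.05 (Ndufb3) to 0.22 (Ndufs3), and the median over all probe sets was 0.00458. By complex the mean difference was 0.10 for complex I, 0.07 for complex II, 0.09 for complex III, 0.06 for complex IV and 0.09 for complex V. H4, with the highest muscle list, held the highest value of 0 of the 30 genes. The muscle list and the mean of the subunits correlated at 0.27 over 15 arrays and at 0.04 over the 11 without C1, C4, C5 and P3. Those arrays, rich in lymph node transcripts, are among the 12 that P7, P9 and H4 were set against. Of all arrays, C5 (-0.24) and C4 (-0.18) had the lowest subunit means. Their part in the difference of 0.09 was not tested. Without P7, P9 and H4 the median was 0.09 for pregnancy minus control and 0.11 for hormone minus control. In each, 29 of 30 genes were higher, against 53.4% and 57.7% of all probe sets.

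Of the isoforms that muscle uses in place of the broad subunits, Cox6a2 and Cox8b separated these arrays from the others. Cox6a2 had log2 values of 9.92 in P7, 10.08 in P9 and 12.09 in H4, against 6.71 to 8.54 on the other arrays, and was called present on 8 of 15. Cox8b, the muscle isoform of another complex IV subunit, had 8.45, 8.90 and 11.30 on the same 3 arrays, against 6.15 to 7.53 elsewhere, and was called present on 9 of 15. Acta1, skeletal muscle actin, had 13.12, 13.21 and 14.28 in P7, P9 and H4, against 6.94 to 11.59 on the others, and Tnnt3, a troponin of fast muscle, had 11.10, 11.50 and 13.24, against at most 9.77. Slc25a4, the ATP/ADP carrier of heart and muscle, reached 13.01 in H4, 12.71 in P7 and 12.56 in P9, against 12.38 to 12.75 elsewhere. Cox7a1 was never called present, and Ckmt2 was not analysed here. The broad partners Cox6a1, Cox7a2, Cox8a and Slc25a5 were higher by 0.05 to 0.11 on the 3 arrays, and Ckmt1, the mitochondrial creatine kinase of other tissues, by 0.46. Between the groups, Cox6a2 differed by 0.54 ± 0.96 for pregnancy minus control (SE, limma adjusted p = 0.763) and by 0.46 ± 0.96 for hormone minus control, the spread within groups being larger than the difference.

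**Figure D3:**
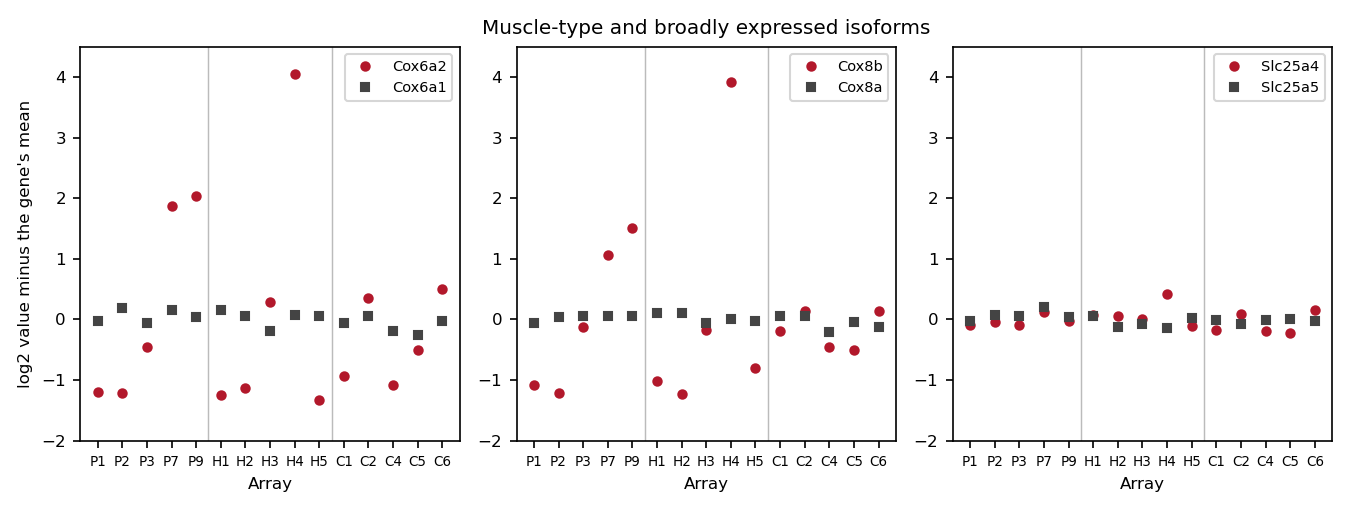
Log2 values of muscle isoforms and of their broad partners on each array, relative to the gene's mean over the 15 arrays. Cox6a2 and Cox8b stand highest on P7, P9 and H4, while Cox6a1, Cox8a and Slc25a5 show no such peaks and Slc25a4 has a small one on H4.

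The arrays rich in lymph node transcripts were lower in the subunits. On C1, C4, C5 and P3 the mean of the 30 genes was 0.16 below that of the other 11 arrays (-0.16), and 0 of 30 genes were higher there, against 38.9% of all probe sets with a median of -0.04. Complex I was lower by a mean of -0.23 and complex IV by -0.09. The lymph node list and the mean of the subunits correlated at -0.74 over 15 arrays and at -0.38 over the 11 arrays without these 4. Of the 4 arrays, 3 are controls, so this difference overlaps both comparisons with control. When the lymph node level entered the fit as a covariate, the median of pregnancy minus control was 0.09. In that fit 28 of 30 genes were higher, against 52.3% of all probe sets. The part of lymph node tissue in the result was not tested further.

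Other array measures moved with the subunits as well. The adipocyte list (15 of 16 genes measured, all called present) ranged from -0.15 to 0.30 in pregnancy, from -0.03 to 0.45 in hormone and from -0.62 to 0.15 in control arrays. It was lowest in C6 (-0.62), C5 (-0.43) and C4 (-0.41), of which C6 had a subunit mean of -0.01. With it as a covariate the medians were 0.07 for pregnancy minus control and 0.05 for hormone minus control. The list of 5 milk protein genes, all called present on every array, ranged from 0.25 to 0.77 in pregnancy, from -0.68 to 0.64 in hormone and from -1.26 to -0.01 in control arrays, with means of 0.55, 0.17 and -0.72. Its mean on C1, C4, C5 and P3 minus that on the other 11 arrays was -0.84, and it correlated with the mean of the subunits at 0.53 over 15 arrays and at 0.29 over the 11. The luminal epithelium list had means of 0.04 in pregnancy, -0.06 in hormone and 0.02 in control arrays and correlated at 0.18. The difference between the 3' and 5' probe sets of beta-actin, a measure of RNA and labelling quality, was lowest in C5 (0.27), C4 (0.31) and P3 (0.35), against 0.38 to 0.57 on the other arrays. It correlated with the mean of the subunits at 0.61 over 15 arrays and at 0.06 over the 11. The part of milk-producing cells, fat and RNA quality in the result was not tested further.

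**Figure D4:**
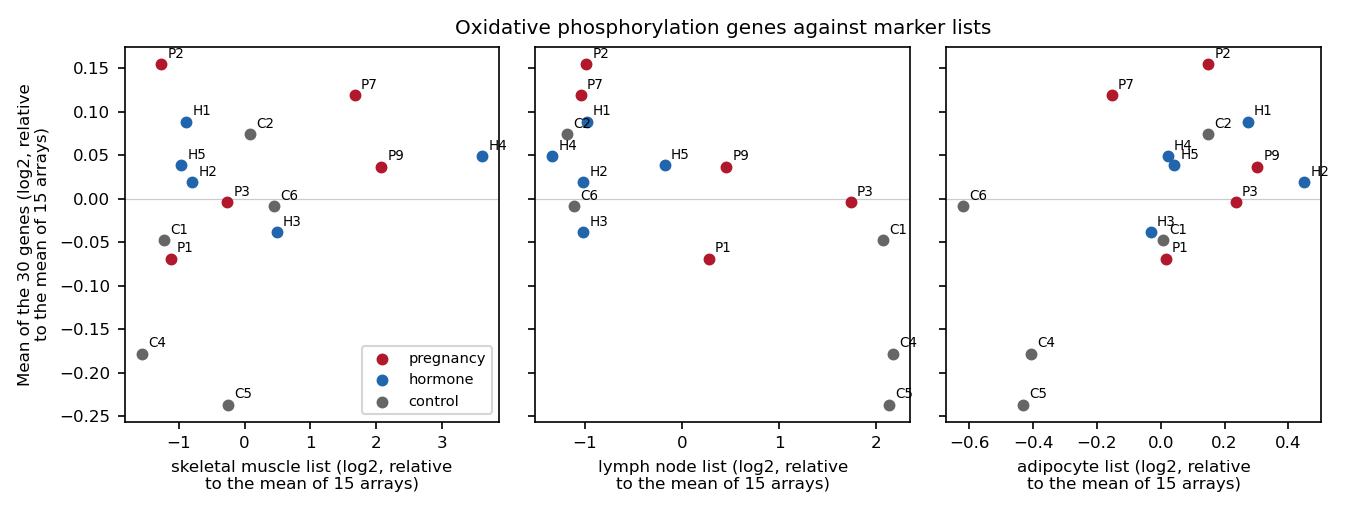
Mean of the 30 subunit genes on each array against the levels of the skeletal muscle, lymph node and adipocyte lists, all in log2 units relative to the 15 arrays. The subunit mean of the 3 muscle-rich arrays (0.04 to 0.12) lies among those of the others, and the lowest 2 arrays, C4 and C5, have high lymph node levels.

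Most other lists of mitochondrial metabolism also had medians above 0. In these lists 0 genes passed in either direction in pregnancy minus control or hormone minus control (limma, adjusted p under 0.05), against 0.197% and 0.029% of all probe sets. Differences above 0 made up 54.7% and 58.0% of all probe sets in the same order. Among probe sets called present on at least 5 arrays these shares were 44.8% and 50.7%. Of 42 further subunits of the respiratory chain and ATP synthase, 40 were higher in pregnancy than in control, with a median of 0.13, and 40 in hormone than in control (median 0.13). Fatty acid oxidation genes were higher in 16 of 16 for pregnancy minus control (median 0.18) and in 15 of 16 for hormone minus control (0.24). Acadl, a dehydrogenase of the first step for long chains, had the smallest p of this list and differed by 0.27 ± 0.08 for pregnancy minus control (SE, limma adjusted p = 0.095). Citric acid cycle genes had medians of 0.10 and 0.13, each with 16 of 17 higher, and Suclg1, a subunit of succinyl-CoA ligase, differed by 0.31 ± 0.08 for pregnancy minus control (adjusted p = 0.082). Ndufc1, a further subunit of complex I, differed by 0.28 ± 0.08 (limma adjusted p = 0.096), although it was called present on 10 of 15 arrays. Of the mitochondrial ribosome, 25 of 30 genes were higher in pregnancy than in control (median 0.07), and of import and membrane genes 17 of 20 (median 0.09). Timm50, a subunit of the import channel of the inner membrane, differed by 0.28 ± 0.08 for pregnancy minus control (SE, limma adjusted p = 0.100). Like the 30 genes, these lists were low on C1, C4, C5 and P3. Only 1 of the 42 further subunits and 0 of 16 fatty acid oxidation genes were higher there than on the other arrays. For the citric acid cycle it was 2 of 17, for the ribosome 3 of 30 and for import 0 of 20, against 38.9% of all probe sets.

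The medians of assembly factors and regulators were below 0 in both comparisons with control. Assembly factors, which build the complexes without staying in them, were higher in 10 of 23 for pregnancy minus control (median -0.04) and in 11 of 23 for hormone minus control (-0.04). These shares, 43.5% and 47.8%, are near the 44.8% and 50.7% of probe sets called present on at least 5 arrays. Cox18, which inserts a complex IV subunit into the membrane, had the smallest p of this list, at -0.20 ± 0.07 for pregnancy minus control (SE, limma adjusted p = 0.135). Regulators of mitochondrial genes and of mitochondrial DNA were higher in 6 of 18 (median -0.09) and 5 of 18 (-0.09). On C1, C4, C5 and P3 the mean of this list was 0.11 above that of the other 11 arrays, with 13 of 18 genes higher. The regulator list correlated with the mean of the subunits at -0.61 over 15 arrays and at 0.04 over the 11. The assembly factor list differed from it in this, with correlations of 0.65 and 0.37. Nrf1, which encodes NRF-1, differed by -0.22 ± 0.14 for pregnancy minus control and by -0.31 ± 0.14 for hormone minus control (SE, limma adjusted p = 0.373 and 0.241). Its highest values were in C4 (8.71) and C5 (8.36), the arrays lowest in the subunits. Gabpa, a subunit of GABP, differed by -0.29 ± 0.11 for pregnancy minus control (SE, limma adjusted p = 0.155), and Tfam, which packages mitochondrial DNA, by -0.07 ± 0.08. Ppargc1b and Esrra, a coactivator and an estrogen-related receptor, differed by 0.27 ± 0.09 and 0.16 ± 0.08 for pregnancy minus control (SE, limma adjusted p = 0.115 and 0.237). Ppargc1a had 0 present calls, as had Ucp1, the uncoupling protein of brown fat. Polg2, a subunit of the mitochondrial DNA polymerase, had the smallest p of the regulators, at -0.39 ± 0.11 for pregnancy minus control (SE, limma adjusted p = 0.084).

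**Figure D5:**
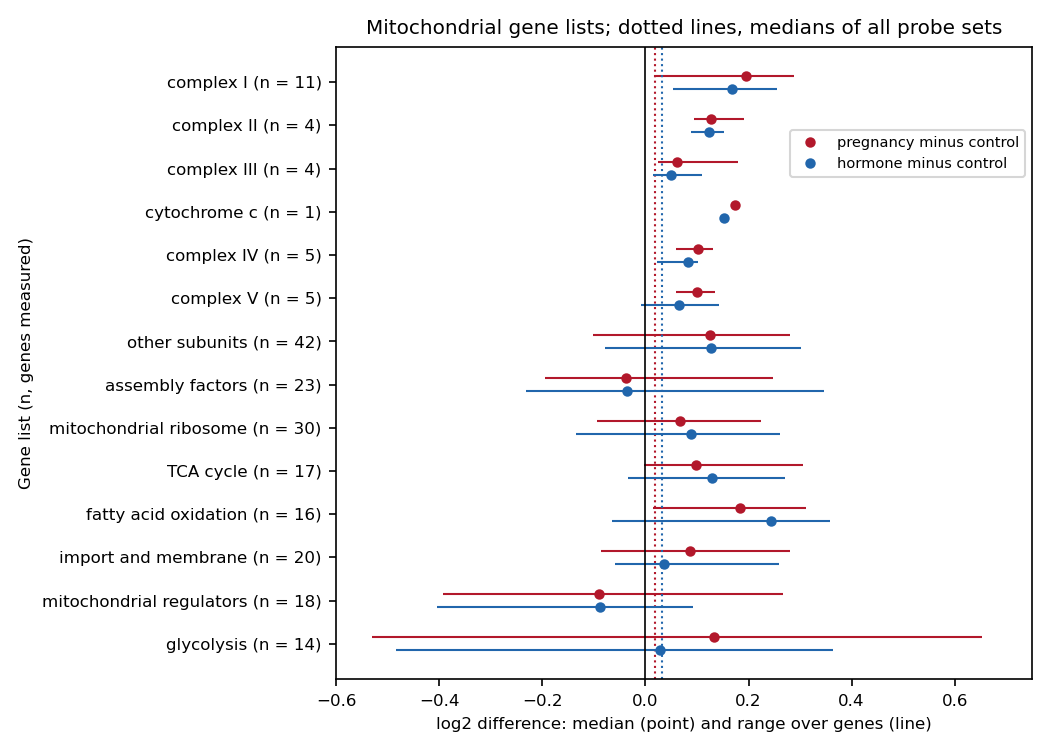
Log2 difference of each list of mitochondrial and metabolic genes for pregnancy minus control and hormone minus control, with points for the median, lines for the range over genes, and dotted lines for the medians of all probe sets. The medians of the subunit lists, the citric acid cycle and fatty acid oxidation lie above 0 in both comparisons. Those of assembly factors and regulators lie below 0 in both, and the lines of several lists cross 0.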

How the data were processed

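Biotinylated cDNA was made with NuGEN Ovation V2 from 80 ng of each rat's RNA, per the labels' protocols, and hybridised to 1 Affymetrix rat array per rat. The authors deposited log2 expression values made by RMA, with detection p-values from MAS5 and their detection calls. Per the submitters' processing notes, GCOS, RMA, MAS5 and affy were used. Their versions, the genome build and the annotation date were not given in the sources used here. Values in both deposited tables matched (largest difference 0). The authors' deposited table also gives log2 fold changes and adjusted p-values per comparison. Its 15 per-sample columns for 5 arrays that match no label were not used.

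From 31099 probe sets, 57 controls were removed, which left 31042 for testing without an intensity filter. A linear model with 1 mean for each group used all 15 arrays (limma 3.58.1, R 4.3.3), with eBayes (residual df 12, prior df 2.70), two-sided tests, Benjamini-Hochberg adjustment over all probe sets of a comparison, and a threshold of 0.05. Errors are moderated standard errors. Tables were prepared in Python 3.11.15 (pandas 2.3.3, numpy 2.4.6), and the steps were tested on simulated data. The 30 genes, the lists and the tests were chosen with earlier results of these data known, so no p is given for a list. Lists are described by counts and medians beside those of all probe sets.

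All 30 genes could be named. Values on every array are given, per complex and for cytochrome c, for the gene with the smallest p in pregnancy minus control and the gene with the largest difference of P7, P9 and H4 from the other arrays. Since Ndufb8 had no present call, Ndufb9, next by p in complex I, was added after its values were seen. From other lists the gene with the smallest p was eligible, along with muscle isoforms and their partners, 6 regulators, Ucp1, the 2 brightest muscle markers and the 5 genes most like the mean profile. Alternatives were array centring, fits of 2 groups, array weights, a present-call filter, an intensity trend, covariates, left-out arrays, the replicate number as a block and the mean of a gene's probe sets. Nothing in the labels says that array pairs share an animal, and 1 array stands for 1 rat.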

Additional observations from a re-analysis of the deposited data

Results flagged for a closer look

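Of 129 sets of 5 arrays examined (a gene in a group), 6 held an array whose gap to its nearest neighbour exceeded Dixon's 95% critical value for 5 values (0.71 of the range), and chance flags about 1 in 20. Ndufa2, an accessory subunit of complex I, was highest in H1 among the hormone arrays, at 11.58. Atp5f1, of the ATP synthase stalk, was lowest in P1 among the pregnancy arrays, at 12.75, and Cox8a, the broad partner of Cox8b, was also lowest in P1 there, at 13.08. Cox8b was highest in H4 among the hormone arrays, at 11.30, the array with the highest skeletal muscle list. Slc25a4 was highest in P7 among the pregnancy arrays, at 12.71. Cox6a1 was lowest in H3 among the hormone arrays, at 12.19.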

How the results depend on the processing

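No subunit gene passed in any comparison as reported, and over the alternatives 1 did: Ndufb8 for pregnancy minus control without C2 (0.38, limma adjusted p = 0.0487). In that fit 1430 of all 31042 probe sets were called, and Ndufb8 had no present call on any array. The median of pregnancy minus control stayed above 0 in every alternative run, at 0.09 to 0.14 with 1 array left out. That of hormone minus control was 0.07 to 0.13 with 1 array left out and changed sign only without C1, C4, C5 and P3 (-0.00386). That of pregnancy minus hormone, 0.01, was -0.01 to 0.04 and was below 0 also with array centring and without P7, P9 and H4. Directions turned for single genes in hormone minus control: without those 4 arrays Ndufb8 (-0.0582), Ndufb9 (-0.0571), Ndufs3 (-0.0550), Sdhb (-0.000373) and Uqcrc1 (-0.00883). With the lymph node list as covariate Ndufs3 was -0.0457 and Uqcrc1 -0.0223, and with both the muscle and lymph node lists -0.0469 and -0.0245. With the adipocyte list Atp5b was -0.0219, Atp5f1 -0.00213 and Uqcrc1 -0.00956. With all probe sets averaged Atp5b was -0.0606 for pregnancy minus control and -0.111 for hormone minus control. The second probe set of Ndufs1 taken alone was also below 0, at -0.22 and -0.21 in the same order. The cause of these turns was not tested.

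Counts of called probe sets over the whole array were unstable. Pregnancy minus control called 61, and 8 in a fit of the 2 groups, 1154 with array weights, 40 with an intensity trend, 26 with the muscle list, 175 with the lymph node list, 119 with both and 16 with the adipocyte list as covariates, 10 without C1, C4, C5 and P3, 0 without P7, P9 and H4 (limma; 2607 at an unadjusted p under 0.05), and 3 to 1430 with 1 array left out. Hormone minus control called 9, and 1, 1374, 1 and 1 under the first, second, muscle and lymph node settings, 0 with both lists, with the adipocyte list and without either set of arrays (2971, 3349, 4812 and 2177 unadjusted), and 0 to 1884 with 1 left out. The highest counts came without C2. Pregnancy minus hormone called 1, and 6 in a fit of the 2 groups, 4 with array weights, 4 without C1, C4, C5 and P3, 0 with the lymph node list, both lists or the adipocyte list and without P7, P9 and H4 (3225, 3001, 3058 and 1117 unadjusted), and 0 to 9 with 1 left out. With the replicate number as a block, 0 were called in each comparison (limma, with 3740, 7521 and 3053 at an unadjusted p under 0.05). The subunit medians were then 0.08, 0.12 and -0.03. Deviations of same-numbered arrays from their group means correlated at -0.25 to 0.38. Tissue content also differs between arrays and P7, P9 and C6 have no same-numbered partner, so these values cannot tell whether the numbers mark a block.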

Other observations

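Glycolytic genes, which make pyruvate outside the mitochondrion, had a median of 0.13 for pregnancy minus control with 10 of 14 higher, and of 0.03 for hormone minus control with 7 of 14 higher. Pfkp, the platelet form of phosphofructokinase, had the smallest p of that list and was lower in both exposures, by -0.53 ± 0.11 for pregnancy minus control and -0.48 ± 0.11 for hormone minus control (SE, limma adjusted p = 0.067 and 0.113). Its values were 8.76 to 9.15 on the pregnancy and hormone arrays, against 9.64, 9.08, 9.65, 9.61 and 9.55 in C1, C2, C4, C5 and C6. Cox6b2, an isoform of complex IV known from testis, differed by -0.65 ± 0.17 for pregnancy minus control (SE, limma adjusted p = 0.084) and by -0.21 ± 0.17 for hormone minus control, with 7.25 to 8.04 in pregnancy arrays, 7.76 to 8.12 in hormone arrays and 7.72 to 8.59 in control arrays.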
